A study of Mus musculus with 38 samples.

Results

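The genes described here are zinc-finger transcription factors and chromatin regulators of Neuro2A cells, a mouse neuroblastoma line that is used as a model of neuronal differentiation, followed over a day of exposure to all-trans-retinoic acid. They were chosen by name alone: a probe entered when its platform gene symbol began with 1 of 31 prefixes, 8 of them for zinc-finger and related factors and 23 for chromatin regulators, with Zfp423 left out. The rule used no measured value, though it was set with earlier results of these data known. It found 35 genes among the 473 named genes of the array (576 probes in all). The zinc-finger class held 16 genes and the chromatin class 19. The names cover more than the label says, since Camta1 and Camta2 are calmodulin-binding factors without a classical zinc finger, and Phf24 encodes a neuronal protein not known as a chromatin regulator.

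The treated groups had received 20 uM retinoic acid in medium with 2% serum for 1 h (5 arrays), 3 h (5 arrays), 6 h (7 arrays), 12 h (7 arrays) or 24 h (7 arrays), and the control group (0 h, 7 arrays) was harvested after the 48 h preculture in 10% serum. All groups are the same line, and no group received a vehicle or the change of medium alone, so in any comparison with 0 h the effects of retinoid, reduced serum and elapsed time cannot be told apart. Each array carried polyadenylated RNA from 4 to 6 plates, labelled with Cy5 and hybridised alone. The labels do not say that replicates came from separate cultures, so a p-value here measures the spread between these samples, which may be technical.

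Retinoic acid binds nuclear receptors that sit on repeated half-sites in DNA. Without ligand these receptors hold corepressors and histone deacetylases, and with ligand they recruit coactivators that modify histones and move nucleosomes. Sequence-specific zinc-finger repressors such as Zeb2 and Zfp536, and the enzymes that write, read and erase histone marks, are known to set which genes a neural precursor opens or closes as it leaves the cell cycle.

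Levels are given as log2 of quantile normalised Cy5 intensity, a scale on which 0 lies near the authors' own unit of 1, and a difference of 1 is 2-fold. Levels of different probes are not compared as expression, and probes are grouped by brightness only to describe the scaling. The lowest values of 30 arrays lay at 1 shared deposited intensity of 0.540, called the floor here, where only an upper bound on the signal is known. Of the 35 genes, 21 were never at the floor and 1, Zfp536, was at the floor on over 50% of arrays. Counting only the 30 arrays that reach the floor, Camta1 was at it on 17, Zfp469 on 16 and Phf24 on 15. Every test is limma's moderated test over all 38 arrays and all 576 probes, with Benjamini-Hochberg adjustment over all probes and a threshold of 0.05.

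Some arrays numbered replicate 1 stood apart from their groups. Their mean over the chromatin genes was 0.10 at 1 h, against 0.38 to 0.54 on the other arrays, 0.06 at 3 h, against 0.42 to 0.59, and 0.09 at 24 h, against 0.19 to 0.34, while their zinc-finger mean was the highest of the group at these 3 times. Over all probes their deviations from the group means correlated at 0.66 to 0.82 among these 3 arrays and at 0.46 to 0.59 with the control array numbered 1. With all 6 arrays numbered 1 left out, a fit added after seeing these values, 0 of 35 genes passed in any comparison with 0 h, late against early or in the F test. In that fit 1.56% of all probes passed at 24 h and late against early. The share was 1.04% in the F test and 0.174% or less at the other times. The median change of the chromatin genes at 3 h was then 0.21, against 0.04 with all arrays. At 24 h the difference without these arrays was 0.24 for Zhx3, 0.22 for Zbtb43 and 0.54 for Tet3, and late against early it was 0.06 for Zfp365. With all arrays these were 0.42, 0.33, 0.26 and 0.17.

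No zinc-finger or chromatin gene passed the threshold in any comparison. At 24 h against 0 h, 0 of 35 genes passed beside 1.04% of all probes, and 2 had an unadjusted p under 0.05, Kmt2b and Camta2, both lower at 24 h, beside 6.77% of all probes. At 12 h the count was 0 beside 0% of all probes, and 0 genes had an unadjusted p under 0.05 beside 3.99%. At 6 h it was 0 beside 0.174%, with 1 gene (Zfp536, higher) unadjusted beside 5.73%. At 3 h it was 0 beside 0%, with 2 genes (Smarcad1 and Setd1b, both higher) unadjusted beside 5.38%. At 1 h it was 0 beside 0%, with 0 genes unadjusted beside 1.39%. After adjustment the share of these genes called was never above that of all probes, and the unadjusted counts of 2 of 35 at 24 h and at 3 h lie near the background.

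Within the treated arrays, the late arrays (12 and 24 h, 14 arrays) were set against the early ones (1 and 3 h, 10 arrays), all of which had received the new medium. Hours of retinoid, hours in reduced serum and elapsed time rise together from early to late, so their effects cannot be told apart in this comparison either. Here again 0 of 35 genes passed beside 0.347% of all probes. Unadjusted, 3 genes had a p under 0.05, Asxl1, Chd9 and Smarcad1, all lower late than early, beside 13.5% of all probes, which is a larger share than theirs. The F test over the 5 times called 0 genes beside 1.04% of all probes and gave 1 gene (Hdac5) an unadjusted p under 0.05 beside 6.42%. The smallest adjusted p of any gene was 0.234, for Asxl1 late against early, and the smallest in the F test was 0.638, for Hdac5.

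Between neighbouring times the adjusted count was also 0 of 35 at every step, beside 0% of all probes at each. From unadjusted p-values, 24 h against 12 h gave 4 genes (Camta2, Zc3h11a and Kmt2b lower, Hdac5 higher) beside 3.82% of all probes. The step of 12 h against 6 h gave 2 genes (Hdac5 and Camta2) beside 4.17%, 6 h against 3 h gave 3 genes (Hdac5, Smarcad1 and Zfp142) beside 3.99%, and 3 h against 1 h gave 1 gene (Hdac5) beside 3.65%. Hdac5 accounts for 1 gene at each of these steps, and at the steps to 6, 12 and 24 h the unadjusted share of these genes was above that of all probes.

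**Figure D1:**
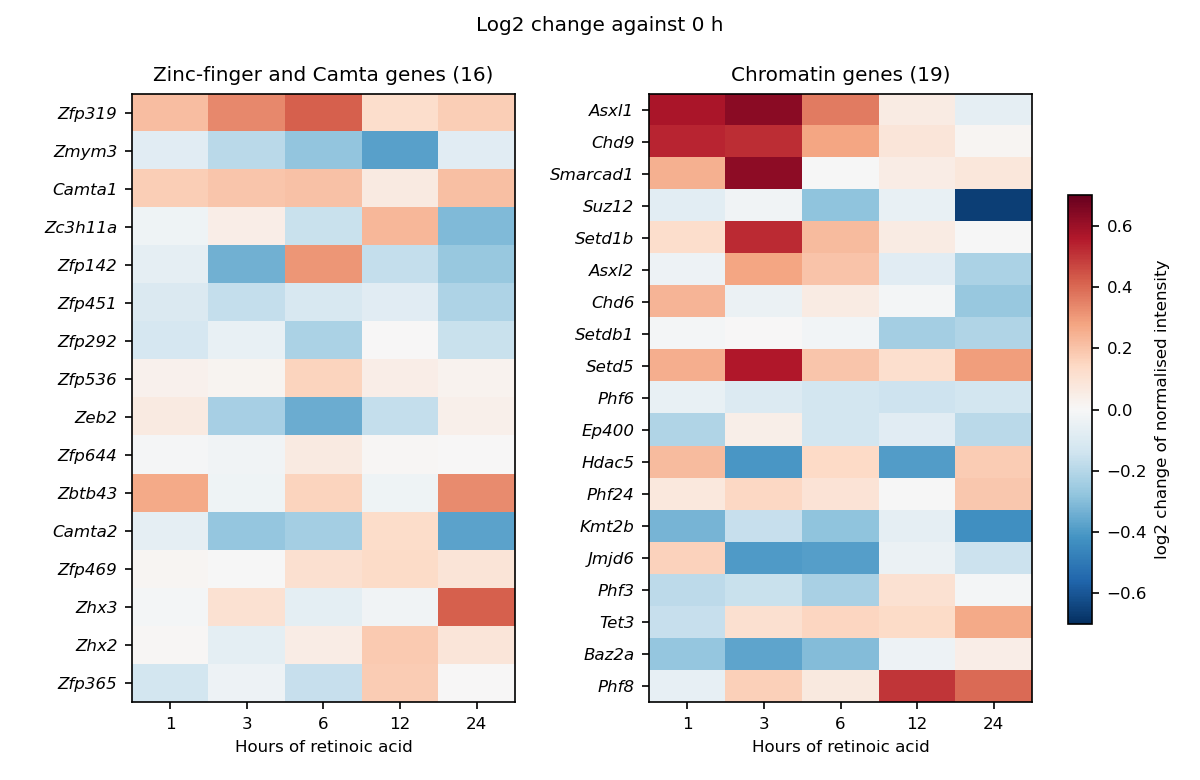
Log2 change of each gene at 1, 3, 6, 12 and 24 h of retinoic acid (columns) against 0 h, with the 16 zinc-finger and Camta genes on the left and the 19 chromatin genes on the right, ordered by their change late against early. No square passed the threshold; the deepest red squares are Asxl1, Smarcad1, Setd5, Chd9 and Setd1b at 1 or 3 h and the deepest blue is Suz12 at 24 h (log2 change -0.66).

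Among the sequence-specific repressors, Zeb2, a SMAD-interacting zinc-finger and homeodomain repressor of neural development, had levels between -0.32 and 1.37 on the 7 arrays at 24 h (median 0.60), against 0.16 to 0.76 at 0 h (median 0.50). The 24 h arrays spread beyond the 0 h arrays on both sides. Over the course (0, 1, 3, 6, 12 and 24 h) its mean ± SD ran 0.47 ± 0.24, 0.53 ± 0.12, 0.23 ± 0.53, 0.12 ± 0.29, 0.30 ± 0.37 and 0.50 ± 0.56. The lowest mean, at 6 h, lay -0.35 from 0 h on the log2 scale, and the F test gave an adjusted p of 0.918 with limma.

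Zfp536, which restrains retinoic acid-induced neuronal differentiation in mouse embryonal carcinoma cells, was at the floor on 22 of 38 arrays. These were 6 of the 7 controls, 4 of 5 arrays at 1 h and again at 3 h, 3 of 7 at 6 h, 4 of 7 at 12 h, and 1 of 7 at 24 h. Its 6 h arrays ran from -0.81 to -0.17 (median -0.75), against -0.81 to -0.73 at 0 h (median -0.79). Most 6 h arrays therefore lay with the controls, and 3 lay above them. The 6 h difference was 0.16 ± 0.06 (log2, SE; limma adjusted p = 0.599) and the 24 h difference 0.03 ± 0.06. Fewer arrays at the floor at 24 h cannot be read as more transcript, because 4 of the 7 arrays at that time never reach the shared floor with any probe.

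Zhx2 and Zhx3 encode zinc-finger and homeobox repressors that can bind each other. Zhx3 ran from -0.12 to 1.97 at 24 h (median 0.29), against -0.29 to 0.43 at 0 h (median 0.17), so 3 of the 24 h arrays lay above every control and the rest lay among them. The difference was 0.42 ± 0.23 (log2, SE; 1.34-fold; limma adjusted p = 0.565), with 4 of 7 arrays above the 0 h mean. Without the 24 h array numbered 1, its highest, it was 0.17. Zhx2 differed by 0.09 ± 0.16 at 24 h, which turned to -0.17 as deposited, -0.23 with median centring and -0.01 with array range as a covariate. Array range is the interquartile range of log2 intensity as deposited. It was lower on every 24 h array than on any control, so this covariate is confounded with time. Zhx2 ran from -0.04 to 1.15 on the late arrays (median 0.80), against 0.26 to 0.74 on the early arrays (median 0.50), and the ranges overlap in full. Late against early differed by 0.16 ± 0.12 for Zhx2 and 0.15 ± 0.18 for Zhx3, neither past the threshold (limma adjusted p = 0.520 and 0.731). On the values as deposited the Zhx2 difference turned to -0.13. That of Zhx3 was 0.03 without the 24 h array numbered 1, 0.23 without the 3 h array numbered 1 and -0.0034 with the range of each array as a covariate.

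Zbtb43, a zinc-finger factor with a BTB dimerisation domain, ran from -0.36 to 1.16 at 24 h (median 0.79), against -0.33 to 0.90 at 0 h (median 0.11). At 24 h 4 arrays stood at 0.79 or more and 3 lay at 0.04 or lower. The difference was 0.33 ± 0.27 (log2, SE; limma adjusted p = 0.595), and with array range as a covariate it turned to -0.11.

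Camta1 and Camta2 encode calmodulin-binding transcription factors of neurons and heart. Camta2 was the gene of the zinc-finger class with the smallest p at 24 h. It ran from -0.75 to -0.08 at 24 h (median -0.51), against -0.34 to 0.43 at 0 h (median -0.11). All 7 arrays at 24 h lay below the 0 h mean, 4 of them below every control, while the other 3 overlapped the controls. The difference was -0.38 ± 0.17 (log2, SE; 0.770-fold, 95% interval -0.73 to -0.03; limma adjusted p = 0.565). The course was not steady, with means over the course (0, 1, 3, 6, 12 and 24 h) of -0.03 ± 0.28, -0.10 ± 0.31, -0.30 ± 0.26, -0.27 ± 0.40, 0.09 ± 0.35 and -0.41 ± 0.31 (SD), and late against early the change was 0.04 ± 0.13.

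Camta1 was at the floor on 17 arrays and ran from -0.80 to -0.35 at 24 h (median -0.47), against -0.81 to -0.62 at 0 h (median -0.79). Of the 24 h arrays, 4 lay above every control and 3 within their range, none of them at the floor, whereas 5 of 7 controls were at it, a contrast open to the same limit as for Zfp536, since 4 of the 24 h arrays never reach the floor. The difference was 0.21 ± 0.15 (log2, SE; limma adjusted p = 0.574). Single arrays stood high at 1 h (0.09) and 3 h (0.35) while the other early arrays lay near the floor.

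Zfp142, a protein of many zinc fingers, varied most between 3 and 6 h. Its 6 h arrays ran from 0.16 to 0.69 (median 0.51), against -0.79, -0.49, -0.37, 0.33 and 0.34 at 3 h. All 7 arrays at 6 h were above the 3 h mean, and 2 of the 3 h arrays lay among them. The step was 0.65 ± 0.26 (log2, SE; limma adjusted p = 0.886), and at 24 h the gene differed from 0 h by -0.27 ± 0.24.

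Zc3h11a, whose CCCH fingers act in the export of messenger RNA rather than on DNA, ran from -0.64 to 0.89 at 24 h (median 0.25), against 0.29 to 1.47 at 12 h (median 0.81). At 24 h 5 arrays lay below the lowest of the 12 h arrays. The step was -0.54 ± 0.26 (log2, SE; limma adjusted p = 0.971), and at 24 h the difference from 0 h was -0.31 ± 0.26.

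Zfp365, a DISC1-binding protein of neuronal processes, ran from 0.32 to 2.00 late (median 0.78), against 0.01 to 1.05 early (median 0.66), a difference of 0.17 ± 0.16 (limma adjusted p = 0.649). The ranges overlap over most of their length, and as deposited the sign turned (-0.10). Without the 12 h array numbered 1 the Zfp365 difference was 0.08 and without the 1 h array numbered 4 it was 0.10. Zfp469, whose human counterpart is linked to brittle cornea syndrome, was at the floor on 16 arrays and ran from -0.81 to -0.18 late (median -0.73), against -0.81 to -0.57 early (median -0.79). Most arrays of both periods lay near the floor. The difference was 0.11 ± 0.07 (limma adjusted p = 0.469).

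The other 5 genes of the zinc-finger class did not pass at any time, and their differences are given in log2 intensity with SE. Zfp451, a SUMO ligase, differed from 0 h by -0.22 ± 0.27. Zmym3, a subunit of deacetylase and demethylase complexes, differed by -0.08 ± 0.20 at 24 h and by -0.38 at 12 h. Zfp292 (-0.16 ± 0.14), Zfp319 (0.17 ± 0.23) and Zfp644 (0.01 ± 0.18) are DNA-binding proteins with many fingers, and Zfp319 had positive differences at all 5 times, the largest 0.42 at 6 h. Over the whole class at 24 h, 10 genes had a higher mean than at 0 h and 6 a lower one, with a median change of 0.02, against 276 higher, 300 lower and a median of -0.01 over all probes.

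Among the writers of histone marks, Kmt2b, a methyltransferase of the trithorax family that marks active promoters, had the smallest p of the 35 genes at 24 h. It ran from -0.82 to 0.17 at 24 h (median -0.53), against -0.48 to 0.26 at 0 h (median 0.05). At 24 h 4 arrays lay below every control, 1 of them at the floor, and the other 3 overlapped the controls. The difference was -0.43 ± 0.18 (log2, SE; 0.743-fold, 95% interval -0.79 to -0.07; limma adjusted p = 0.490), with 6 of 7 arrays below the 0 h mean. Its means at 1, 3, 6, 12 and 24 h were -0.34 ± 0.41, -0.17 ± 0.30, -0.29 ± 0.37, -0.07 ± 0.35 and -0.44 ± 0.33 (SD), all below that of 0 h (-0.01 ± 0.27), and late against early the difference was -0.0014 ± 0.14 (SE).

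Setd1b, a catalytic subunit of the COMPASS-type complexes that share this mark, differed from 0 h by 0.52 ± 0.23 at 3 h (log2, SE; limma adjusted p = 0.844), with 5 of 5 arrays above the 0 h mean, and by a value near 0 at 24 h (95% interval -0.44 to 0.43). Setd5, a SET-domain protein linked to neurodevelopment, had differences of 0.56 at 3 h and 0.29 ± 0.27 at 24 h. Setdb1, which places the repressive mark used by KRAB zinc-finger proteins, differed by -0.21 ± 0.27 at 24 h. None of these passed the threshold.

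Suz12, a core subunit of the Polycomb repressive complex that methylates histone H3, showed the largest difference of any of the 35 genes at 24 h and also the widest interval. It ran from -0.68 to 0.93 at 24 h (median 0.35), against -0.21 to 1.27 at 0 h (median 0.99). At 24 h 3 arrays lay below every control and 4 among them. The difference was -0.66 ± 0.39 (log2, SE; 0.634-fold, 95% interval -1.45 to 0.13; limma adjusted p = 0.565), and with array range as a covariate it turned to 0.18. Asxl2, a partner of the Bap1 deubiquitinase that opposes Polycomb, differed by -0.22 ± 0.27.

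Among the erasers, Hdac5, a class IIa deacetylase that opposes Camta2 in mouse heart, gave the smallest F p of all 35 genes (limma adjusted p = 0.638). Its values were -0.22, 0.06, 0.22, 0.38 and 0.75 at 1 h and -0.79, -0.61, -0.43, -0.13 and 0.01 at 3 h. At 12 h they ran from -0.80 to 0.50 (median -0.40), and at 24 h from -0.34 to 0.49 (median 0.34), against -0.78 to 0.95 at 0 h (median 0.11). The group means alternated, high at 1, 6 and 24 h (0.24 ± 0.36, 0.16 ± 0.45 and 0.20 ± 0.31, SD) and low at 3 and 12 h (-0.39 ± 0.33 and -0.38 ± 0.48), with 0.02 ± 0.57 at 0 h, and no pair of groups was free of overlap. The control arrays alone spanned nearly the whole range of the gene, and 2 of the 12 h arrays, 1 of the 3 h arrays and 1 control were at the floor.

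Phf8, a demethylase that removes repressive histone marks and is linked to intellectual disability, had, with quantile normalisation, the largest positive difference late against early of the 35 genes. It ran from -0.44 to 1.27 late (median 0.75), against -0.31 to 0.84 early (median 0.20). Of the late arrays, 12 of 14 lay above the early mean, though both ranges overlap. The difference was 0.39 ± 0.20 (log2, SE; 1.31-fold, 95% interval -0.005 to 0.79; limma adjusted p = 0.355), and at 24 h against 0 h it was 0.39 ± 0.25. Late against early it was 0.17 as deposited and 0.10 with median centring, below that of Zfp469 in both (0.33 and 0.26). Tet3, which oxidises methylated cytosine, differed at 24 h by 0.26 ± 0.32 and Jmjd6, an oxygenase that acts on arginine and lysine side chains, by -0.15 ± 0.33.

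Of the remodelling ATPases, Chd6 ran from -0.34 to 0.35 at 24 h (median 0.12), against -0.13 to 0.77 at 0 h (median 0.48). At 24 h 2 arrays lay below every control and 5 within their range. The difference was -0.27 ± 0.17 (log2, SE; limma adjusted p = 0.565), with 6 of 7 arrays below the 0 h mean. Ep400, the ATPase of the TIP60 acetyltransferase complex, differed by -0.19 ± 0.19, and Baz2a, a reader that silences ribosomal DNA, by 0.05 ± 0.26. Both intervals include 0.

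Among the other PHD-finger genes, Phf24, a brain protein that interacts with inhibitory G proteins, was at the floor on 15 arrays and ran from -0.81 to 0.13 at 24 h (median -0.70), against -0.81 to -0.41 at 0 h (median -0.79). At 24 h 2 arrays stood above every control and 5 did not. The difference was 0.19 ± 0.12 (log2, SE; limma adjusted p = 0.565), and it was 0.08 without the 24 h array numbered 4 and 0.12 without that numbered 5. Phf3, which binds RNA polymerase II, differed by -0.01 ± 0.19 and Phf6, a nucleolar and chromatin protein mutated in a syndrome of intellectual disability, by -0.13 ± 0.16. Over the chromatin class at 24 h, 8 genes had a higher mean than at 0 h and 11 a lower one, with a median change of -0.01.

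**Figure D2:**
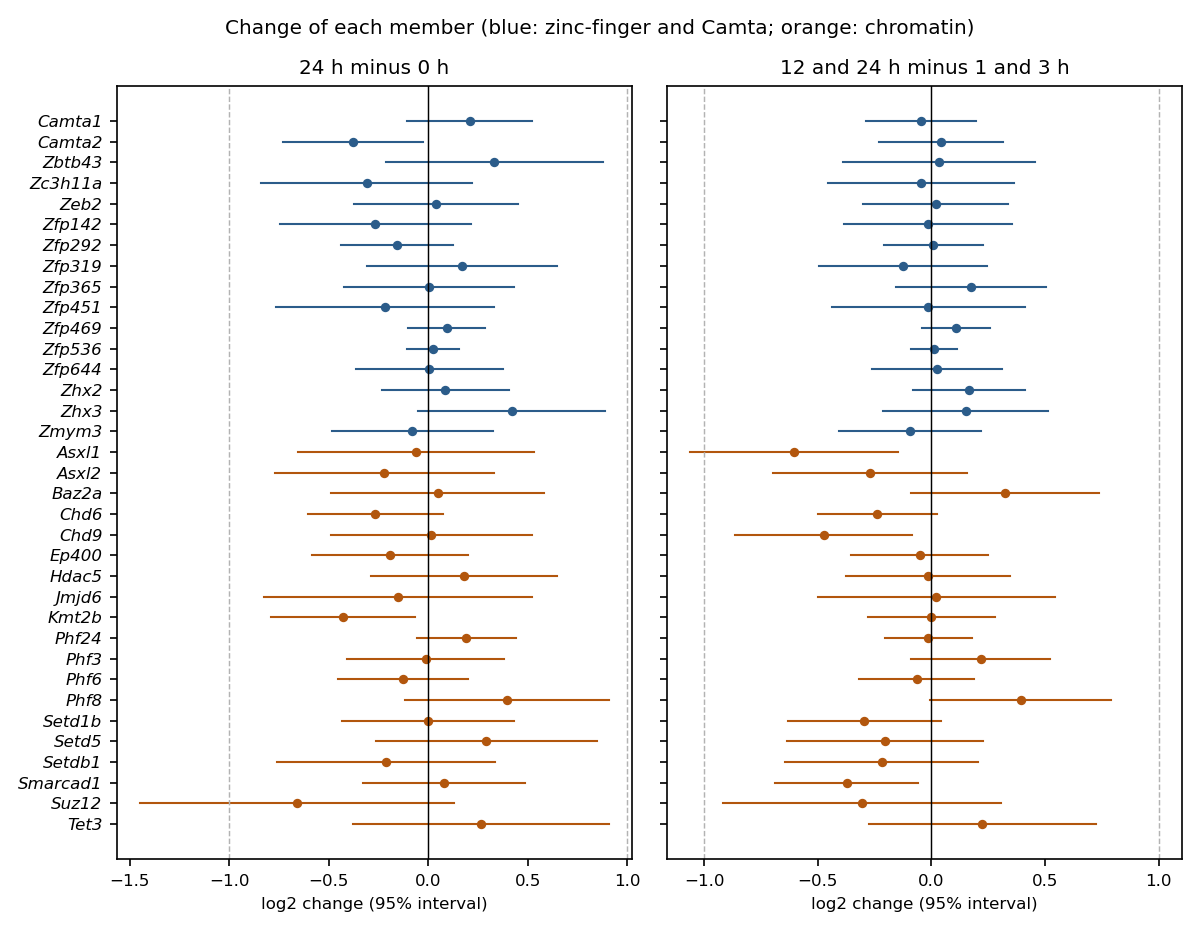
Log2 change of each of the 35 genes with its 95% interval from the limma fit, 24 h against 0 h on the left and late (12 and 24 h) against early (1 and 3 h) on the right, with zinc-finger and Camta genes in blue and chromatin genes in orange. Dashed lines mark a 2-fold change in each direction; only Suz12 on the left and Asxl1 on the right reach past one.

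The intervals bound what these arrays could show. At 24 h against 0 h the 95% interval lay within 2-fold in both directions for 16 of 16 zinc-finger genes and 18 of 19 chromatin genes, the exception being Suz12. Within 1.5-fold it lay for 9 of 16 and 8 of 19, so a 1.5-fold change in 1 direction or the other lies inside the interval of most chromatin genes. Late against early, where 24 arrays take part, the interval lay within 1.5-fold for 16 of 16 zinc-finger genes and 8 of 19 chromatin genes, and within 2-fold for 18 of 19 chromatin genes, the exception being Asxl1. The intervals cover the spread between arrays and hold for the normalisation used. Values at the floor are only upper bounds. For Zfp536, Camta1, Zfp469 and Phf24, at the floor on 22, 17, 16 and 15 arrays, a narrow interval therefore does not bound a change of transcript.

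The members of the chromatin class with the smallest p late against early were Asxl1, Chd9 and Smarcad1, all lower late. Phf8 differed in the other direction by 0.39, more than Smarcad1 did. Asxl1 encodes a Polycomb-group scaffold that activates the Bap1 deubiquitinase and has been described as a coregulator of retinoic acid receptors. Its late arrays ran from -0.80 to 0.94 (median 0.01), against 0.13 to 1.20 on the early arrays (median 0.63). Of the 14 late arrays 12 lay below the early mean, and both ranges overlap. The difference was -0.60 ± 0.23 (log2, SE; 0.658-fold, 95% interval -1.06 to -0.15; limma adjusted p = 0.234).

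Chd9, a chromodomain remodeller, ran from -0.73 to 0.44 on the late arrays (median -0.18), against -0.61 to 0.80 on the early arrays (median 0.23). The overlap is wide, but 13 of 14 late arrays lay below the early mean. The difference was -0.47 ± 0.19 (log2, SE; 0.720-fold; limma adjusted p = 0.319). Smarcad1, a SNF2-like remodeller that keeps silent chromatin intact through replication, ran from 0.11 to 1.00 late (median 0.53), against 0.26 to 1.20 early (median 0.95). Again 13 of 14 late arrays lay below the early mean. The difference was -0.37 ± 0.15 (log2, SE; 0.772-fold; limma adjusted p = 0.340). Without the arrays numbered 1 the differences were -0.80 for Asxl1, -0.50 for Chd9 and -0.48 for Smarcad1, with limma adjusted p of 0.125, 0.326 and 0.233.

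Set against 0 h, these 3 genes had their highest group means at 1 or 3 h and means near the controls at 24 h. The 6 h arrays spread widest and held the highest single array of each gene, running from -0.63 to 1.21 for Asxl1, from -0.79 to 0.94 for Chd9 and from -0.56 to 1.51 for Smarcad1. Smarcad1 stood at 0.85, 1.02, 1.13, 1.20 and 1.20 on the 3 h arrays, against -0.05 to 0.93 at 0 h (median 0.37). Of the 3 h arrays 4 lay above every control and 1 within their range. The difference at 3 h was 0.62 ± 0.22 (log2, SE; 1.54-fold; limma adjusted p = 0.584), and at 24 h it was 0.08 ± 0.20.

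Asxl1 stood at 0.13, 0.39, 0.76, 1.02 and 1.20 on the 3 h arrays and at 0.30, 0.37, 0.49, 0.85 and 1.20 on the 1 h arrays, against -0.53 to 0.81 at 0 h (median -0.13). In each early group the upper 2 arrays lay above every control, and the rest among them. The differences were 0.57 at 1 h and 0.63 ± 0.32 at 3 h (limma adjusted p = 0.852 for 3 h), and -0.06 ± 0.29 at 24 h. Chd9 differed by 0.53 at 1 h, 0.52 ± 0.27 at 3 h and 0.02 ± 0.25 at 24 h, with 2 of 7 controls at the floor. None of these differences passed the threshold.

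**Figure D3:**
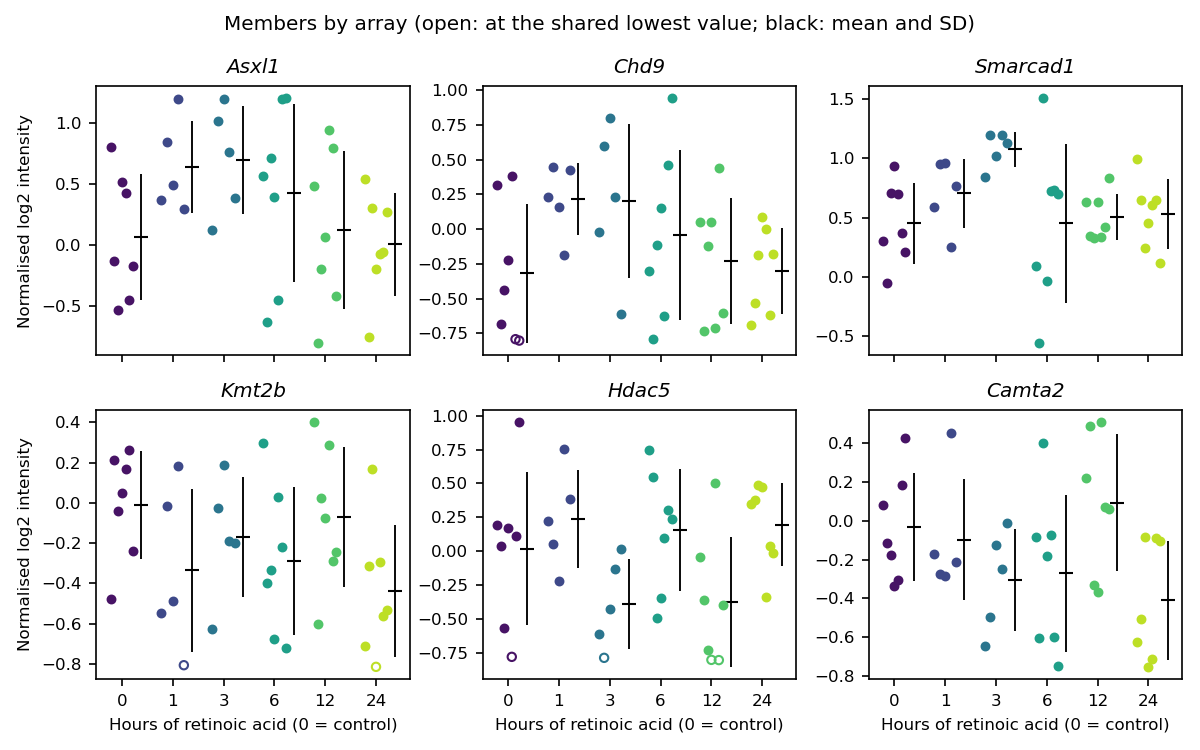
Level of 6 genes on each array (log2 of quantile normalised intensity) by hours of retinoic acid, where 0 is the control; points are arrays, open points lie at the floor, and black marks are the mean and SD. The means of Asxl1, Chd9 and Smarcad1 are highest at 1 or 3 h, though their highest single arrays are at 6 h, the means of Kmt2b and Camta2 are lowest at 24 h, and those of Hdac5 alternate, with overlapping groups in every panel.

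Late against early, the chromatin class as a whole had 14 of 19 genes lower and 5 higher, with a median of -0.06, while the zinc-finger class had 6 of 16 lower and 10 higher, with a median of 0.01. All 576 probes had 291 lower and 285 higher, with a median of -0.0017. The spread of the arrays moved with time: the mean interquartile range of log2 intensity as deposited ran 1.51, 1.56, 1.64, 1.14, 1.13 and 0.879 over the course (0, 1, 3, 6, 12 and 24 h). As deposited, the brightest 144 probes had a median late against early change of -0.43 and the dimmest 144 one of 0.16, while after quantile normalisation both were near 0 (-0.008 and -0.01).

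The late against early differences depended on the scaling in the same genes. With no normalisation after deposit 3 genes passed, Asxl1 (-0.75, limma adjusted p = 0.0216) and Smarcad1 (-0.68, adjusted p = 0.00745) lower and Zfp469 (0.33, adjusted p = 0.0305) higher, where 13.5% of all probes passed. With median centring the 3 that passed were Asxl1 (-0.82), Smarcad1 (-0.75) and Chd6 (-0.43), where 11.3% of all probes passed. With quantile normalisation and array quality weights 7 passed, all lower late and all of the chromatin class (Asxl1, Suz12, Chd9, Smarcad1, Asxl2, Setdb1 and Setd1b), where 28.8% of all probes passed. Asxl1 and Smarcad1 passed in all 3 of these settings, and in the other 7 settings tried no gene of either class passed, including trended and robust variances, where 13.9% of all probes passed. With the range of each array as a covariate 0 genes passed, and the differences were smaller: -0.16 for Asxl1, -0.18 for Chd9 and -0.05 for Smarcad1. That range is itself confounded with time. It ran from 0.58 to 1.06 on the 24 h arrays and from 0.28 to 1.61 at 12 h, against 1.41 to 1.74 at 1 and 3 h. At 0 h it ran from 1.23 to 1.83. This fit therefore cannot tell an effect of range from a change with time.

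**Figure D4:**
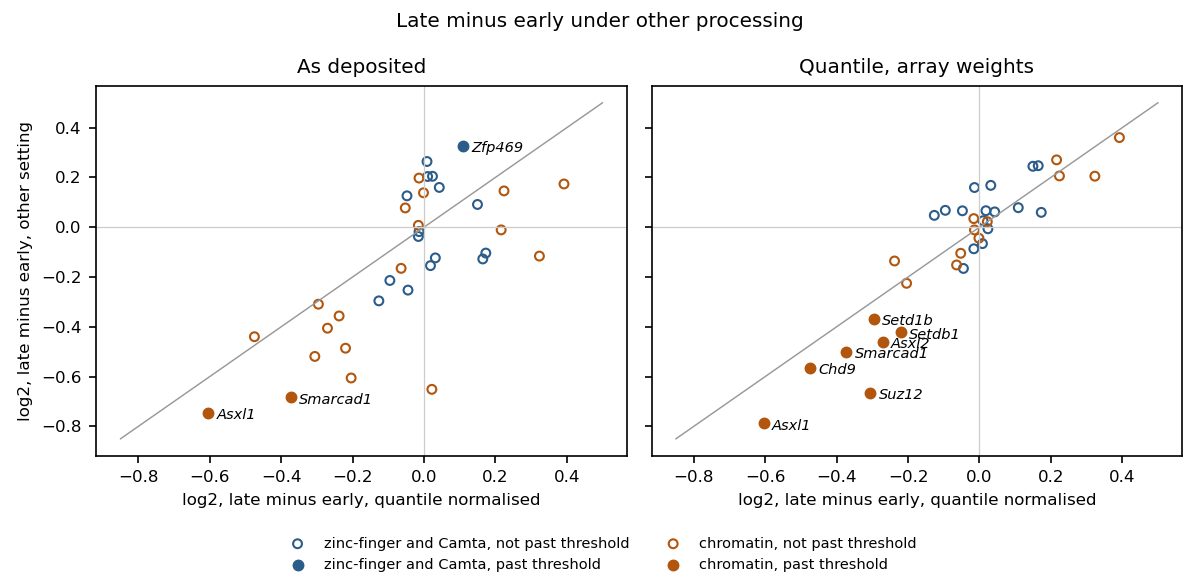
Late against early log2 change of the 35 genes under other processing (vertical) against that with quantile normalisation (horizontal), as deposited on the left and with array quality weights on the right; filled points passed the threshold in the setting on the vertical axis and the diagonal marks equal values. Asxl1 and Smarcad1 are filled in both panels, where 13.5% and 28.8% of all probes passed.

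No promoter activity was measured, and the sequences only describe the start regions of the 3 chromatin genes with the lowest p late against early, none of which held the half-site, and of the 1 gene with a retinoid-type repeat. Of the 35 genes 29 matched a RefSeq promoter window (GRCm38.p6, 250 bases before to 50 after the start). The half-site AGGTCA was found on either strand in 2 of 29 windows (Zfp319 and Zfp644), which is 6.90%, against 16.0% of the 27025 windows of all genes. Direct repeats were searched with each half-site read as AGGTCA or as AGTTCA or as GGGTCA or as GGTTCA, on both strands, and spacers of 5, 2 or 1 bases. They gave 0, 1 and 0 of 29 windows, against 0.096%, 0.263% and 0.226% of all windows. The GC box GGGCGG was in 20 of 29 windows (69.0%), against 35.9% of all, and the median number of CpG was 20, against 7. The 200 bases upstream of the starts of Asxl1 (chr2:153345630-153345829, plus strand), Smarcad1 (chr6:65042391-65042590, plus strand) and Chd9 (chr8:90828635-90828834, plus strand) are given with the GC box in capitals on either strand, and 64 bases of Zc3h11a (chr1:133661476-133661539, minus strand) with the repeat of spacer 2 in capitals, all written 5′ to 3′ on the gene's strand.
Asxl1: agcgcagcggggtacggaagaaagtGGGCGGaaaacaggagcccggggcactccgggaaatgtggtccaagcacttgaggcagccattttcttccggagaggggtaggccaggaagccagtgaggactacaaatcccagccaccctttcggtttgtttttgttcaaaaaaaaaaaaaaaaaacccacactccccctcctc
Smarcad1: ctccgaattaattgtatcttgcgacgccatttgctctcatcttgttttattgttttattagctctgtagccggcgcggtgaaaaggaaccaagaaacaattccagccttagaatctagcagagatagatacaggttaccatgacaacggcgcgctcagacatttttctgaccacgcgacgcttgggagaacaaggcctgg
Chd9: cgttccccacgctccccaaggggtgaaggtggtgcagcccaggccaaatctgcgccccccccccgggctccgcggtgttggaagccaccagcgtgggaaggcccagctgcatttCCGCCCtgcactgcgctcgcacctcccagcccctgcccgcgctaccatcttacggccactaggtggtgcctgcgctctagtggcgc
Zc3h11a: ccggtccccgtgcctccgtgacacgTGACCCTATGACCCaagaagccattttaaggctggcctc
The Asxl1 box starts 175 bases and the Chd9 box 86 bases before the start, Smarcad1 has none in this stretch, and the Zc3h11a repeat starts 115 bases before the start. A match describes letters in these windows only.

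Genes of the same kinds outside the name rule came from lists with few probes on the array. Of 84 other zinc-finger factors 13 were measured, and 1 passed, Atmin, a zinc-finger factor of the DNA damage response and of dynein light chain expression, which rose by 0.82 ± 0.20 at 24 h against 0 h (log2, SE; limma adjusted p = 0.0296) and was 0.71 ± 0.16 higher late than early (adjusted p = 0.0253). St18, a neural factor of the Myt1 family, differed by -0.31 ± 0.09 at 24 h (limma adjusted p = 0.127). Of 193 other chromatin regulators 7 were measured and 0 passed in any comparison with 0 h or late against early, 1 of them, Bicral (-0.29 ± 0.13), having an unadjusted p under 0.05 at 24 h, while Ezh1, a Polycomb methyltransferase, differed by 0.23 ± 0.17. Against 0 h, 1 of these 7 regulators was higher and 6 were lower at 3 h, with a median change of -0.17. Late against early 5 were higher and 2 lower (median 0.07), whereas the chromatin class had 5 higher and 14 lower. Of 25 corepressors and coregulators 4 were measured and 0 passed. Among them Tle3, a Groucho-type corepressor, had a difference of 0.94 ± 0.27 at 24 h (limma adjusted p = 0.0988) and the mediator kinase Cdk19 one of 0.29 ± 0.24.

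For the cells themselves, 9 of 40 neuronal markers fixed for this check were on the array. Nefh, Myt1, Myt1l, Syt11, Kif5c and Tenm3 were never at the floor, while Tenm4, Nrcam and Tenm2 were at it on 18, 15 and 11 arrays. Of 30 markers of other cell types only Pxdn and Phldb1 were measured, both above the floor on every array, so the array gives some neuronal markers and says little about other cell types. Of these markers 1, Tenm4, passed late against early (0.68 ± 0.13, limma adjusted p = 0.00357), beside 0.347% of all probes. At 12 h 2 arrays and at 24 h 4 arrays never reach the floor, against 0 at 1 and 3 h. The Tenm4 difference is therefore open to the floor limit given for Zfp536. The 9 neuronal markers as a list had 4 higher and 5 lower late against early, with a median of -0.07. At 24 h against 0 h 6 were higher and 3 lower, with a median of 0.20.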

How the data were processed

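Cy5 intensity values of 576 probes on 38 arrays were deposited by the authors on a linear scale. Per the labels, they come from 1-colour hybridisations of messenger RNA to oligonucleotide arrays for KIAA genes (long, mostly brain-derived cDNAs), imaged on an FLA-8000 and quantified in Phoretix. The background correction and the scaling are not given in the sources used here. Between 54.5% and 55.0% of probes lay below 1 on every array, and 30 arrays shared a lowest value of 0.540, which 8 arrays never reached (2 at 6 h, 2 at 12 h and 4 at 24 h). No detection values were used, and the number of arrays limits the precision.

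Probes took their gene names from the platform annotation (473 with 1 gene, 103 unnamed). All 35 genes described matched RefSeq by gene identifier, and 35 symbols were unchanged. The members, the lists and the tests were chosen with earlier results of these data known. Intensities were taken to log2, quantile normalised and fitted with limma 3.58.1 in R 4.3.3, with the 6 groups as the only factor (32 residual degrees of freedom), two-sided moderated tests and Benjamini-Hochberg adjustment over all 576 probes. Late is the mean of 12 and 24 h, early that of 1 and 3 h. The fitting code was tested on simulated data. No 2 arrays held identical values.

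Described array by array were, in each class, the 6 genes with the smallest F p, the 4 with the smallest p at 24 h and the 4 with the smallest p late against early, 20 genes in all. Of each list of other genes the 2 with the smallest p at 24 h and any past the threshold were named. The alternatives were other scalings, array range as a covariate, array weights, another variance model, a filter on dim probes (at the floor on over 50% of arrays), an offset of 1, fewer arrays, the replicate number as a block, and each array left out in turn. A fit without the arrays numbered replicate 1 was added after seeing the data.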

Additional observations from a re-analysis of the deposited data

Results flagged for a closer look

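Within groups of 5 or 7 arrays, 15 of 120 groups of the 20 genes described array by array held 1 array that Dixon's test at the 95% level set apart from the rest of its group. For normally spread values chance alone sets apart about 1 in 20 groups. Groups lying mostly at the floor are not spread in this way, and genes on the same arrays are not independent. That rate is therefore no reference for this count. Of these 15 values, 9 are from arrays numbered replicate 1. All values are log2 of quantile normalised intensity.

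Of these, 12 concern Camta1, Phf24, Zfp469 and Zfp536, whose other arrays in these groups lay at or near the floor. Camta1 was high on replicate 2 at 0 h (-0.615), replicate 1 at 1 h (0.0900), replicate 1 at 3 h (0.351) and replicate 2 at 12 h (-0.242). Zfp536 was high on replicate 1 at 0 h (-0.732), replicate 1 at 1 h (-0.619), replicate 1 at 3 h (-0.653) and replicate 2 at 12 h (-0.531). Phf24 was high on replicate 1 at 0 h (-0.415) and replicate 6 at 12 h (-0.389), and Zfp469 on replicate 1 at 3 h (-0.567) and replicate 1 at 24 h (-0.336).

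Outside the floor, Camta2 was high on replicate 4 at 1 h (0.453), where the next array stood at -0.171. Zhx3 was high on replicate 2 at 6 h (0.782), where the next stood at 0.0698. Suz12 was at the floor on replicate 1 at 1 h (-0.804), while the next array of that group stood at 0.911.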

How the results depend on the processing

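Under 10 other settings, in a fit without the 6 arrays numbered 1 (chosen after seeing the data) and with each of the 38 arrays left out in turn, the count of genes past the threshold was 0 at 1, 6, 12 and 24 h in every fit. Over the settings, the share of all probes passing at 24 h ran from 0.347% (array range as a covariate) to 10.9% (trended and robust variances). At 1, 6 and 12 h that share was at most 0.347%. The count of genes became 2 at 3 h (Smarcad1 and Chd9, where 2.6% of all probes passed) and 4 in the F test (Smarcad1, Chd9, Asxl1 and Hdac5, where 12.3% passed) with array weights. Late against early it became 3 as deposited, 3 with median centring and 7 with array weights, where 13.5%, 11.3% and 28.8% of all probes passed. Leaving out single arrays gave 0 throughout, and so did the replicate block. The F test was not run on the compared arrays alone, since it uses all of them.

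The median change of the chromatin class at 24 h was -0.19 as deposited, -0.25 with median centring and 0.18 with array range as a covariate, and late against early it was -0.31 as deposited and -0.38 with median centring. Without the arrays numbered 1 it was 0.21 at 3 h. That of the zinc-finger class at 24 h was -0.13 with median centring. As deposited the median of all probes itself lay at 0.09 at 24 h. In 4 settings (as deposited, median centring, array weights and array range as a covariate) the sign turned in at least 1 for 24 of 35 genes late against early and for 21 of 35 at 24 h. Array range as a covariate, which is confounded with time, turned 13 genes in each comparison. Some signs turned from values near 0, as for Setd1b at 24 h (-0.0017). The count was not made over all probes, so it shows nothing particular to these genes. Among the comparisons that selected a gene for description, signs turned late against early for Zhx2 (-0.13 as deposited, -0.20 with median centring), Zfp365 (-0.10 and -0.17) and Zhx3 (-0.0034 with array range as a covariate), and at 24 h for Zbtb43 (-0.11) and Suz12 (0.18), both with array range as a covariate. The cause was not tested. Array weights took Chd9 past the threshold late against early (-0.57, limma adjusted p = 0.00913). The genes with the highest mean at 1 or 3 h, counted after seeing the data, were 1 of 16 in the zinc-finger class, but 6 as deposited, 6 with median centring, 2 without the 8 arrays above the floor, 3 without the arrays numbered 1, and 0 to 4 with single arrays left out (22 of 38 such fits staying within 1.5 times the count). In the chromatin class the count was 9 to 13 with single arrays left out and 8 to 13 over the 5 other settings. The share of all probes in these settings is not given here.

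Replicate numbers recur across groups and, taken over all numbers, do not pair the arrays, although the arrays numbered 1 at 0, 1, 3 and 24 h resemble each other. Deviations from the group means correlated with a median of 0.05 between same-numbered arrays of different groups (87 pairs, -0.53 to 0.82) and -0.0037 between others (512 pairs). By number, the median was 0.31 for number 1 (15 pairs) and between -0.05 and 0.13 for numbers 2 to 7. With the replicate block the late against early change of Asxl1 was -0.66, that of Chd9 -0.51 and that of Smarcad1 -0.38, none past the threshold. Without spot background or detection values, the floor is the only bound on dim probes such as Zfp536.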

Other observations

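With quantile normalisation the time of the highest group mean differed between the classes, in a count made after seeing the data and given without a test. In the chromatin class 11 of 19 genes (57.9%) had their highest mean at 1 or 3 h, among them Asxl1, Asxl2, Setd1b, Setd5, Setdb1 and Smarcad1 at 3 h and Chd6 and Chd9 at 1 h, against 36.1% of all probes and 29.4% of named genes. A highest mean was counted whatever its margin. At 3 h the mean of Setdb1 lay only 0.0025 above that at 0 h, and that of Ep400, also counted, only 0.04. The count was 8 without the 8 arrays that never reach the floor, and 8 to 13 over the 5 other settings in which it was made. In the zinc-finger class it was 1 of 16 (Zeb2, at 1 h), a count that changed to 6 when the quantile normalisation was left out. The shares of all probes and of named genes above hold for the quantile normalised values. They are no background for the counts of the other settings. The zinc-finger means were highest at 12 h for 6 genes (Camta2, Zc3h11a, Zfp292, Zfp365, Zfp469 and Zhx2), at 6 h for 4 and at 24 h for 3. As deposited, array range was largest at these early times, and its part in these counts was not tested.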
